A study of Drosophila melanogaster with 6 samples.

Results

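Intron retention (IR) events are stretches of sequence that lie outside every annotated transcript exon. The counter of pseudoaligned reads, fortuna, found them overlapped by reads, with no further splicing seen inside them. The members described here are all events that fortuna typed as IR in 6 mRNA libraries of Drosophila pupae of genotype w[1118], raised at 27 °C and dissected at 72 h after puparium formation (APF): 2 of indirect flight muscle (IFM, fibrillar muscle), 2 of brain (labelled non-muscle) and 2 of whole leg (labelled tubular muscle; a whole leg also holds skin, nerves and other cells). An event is 1 combination of chromosome, start, end and type, and reads of both read ends were added per library. IR made up 4283 of 122483 unannotated events (3.50%), with 32641 reads. All share the w[1118] background and none is labelled with a treatment. The labels name 1 provider for the IFM libraries and another for brain and leg, while the paper's supplement names 1 provider for all tissues. By the labels, tissue and provider cannot be told apart for IFM. Nothing in the labels says that replicates came from separate animals, but the paper's supplement calls them biological duplicates. The p-values measure the spread between these libraries, 2 per tissue.

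Introns are removed from pre-mRNA by the spliceosome, which recognizes a donor site at the 5′ side and an acceptor site at the 3′ side. In flies most introns are short and are recognized across the intron. An mRNA that keeps an intron may carry a premature stop codon and be degraded by nonsense-mediated decay, may stay in the nucleus, or may encode another protein form. In flight muscle, alternative splicing shapes many sarcomere proteins, and in the brain it shapes channels and synaptic proteins.

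Most events named IR lay inside introns, but few followed a complete intron. By the annotation, 2932 of the 4283 events (68.5%), with 20832 reads (63.8%), lay within an annotated intron, 2627 of them in an intron of the gene at their edge and 305 in an intron of another gene. Of the 4283 events, 1194 (27.9%) spanned exactly 1 annotated intron from end to end, and they held 4063 reads (12.4%). Another 581 events with 3051 reads covered part of an intron. The most reads were elsewhere: 2226 events (51.97%) with 24351 reads (74.6%) lay directly before an annotated transcription start, 503 of them reaching on to the end of the gene before it. Of these 2226, 766 events with 8174 reads lay in an intron of their own gene, next to an inner start, 217 with 4747 reads in an intron of another gene, and 1243 with 11430 reads outside introns. A further 276 events with 1165 reads followed an annotated transcript end, and 6 events touched no annotated edge. Altogether 1349 events lay outside genes. The name intron retention thus matches a whole annotated intron for 27.9% of events and 12.4% of reads. Events before a transcription start are called start-side events below, and events over a complete annotated intron are called whole introns.

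IR reads took a smaller share of all event reads in both IFM libraries than in the others. They were 0.293% and 0.260% of all event reads in IFM, against 0.575% and 0.600% in brain and against 0.873% and 0.910% in leg, so that the groups did not overlap. Mean shares were 0.277 ± 0.0232% in IFM, 0.587 ± 0.0174% in brain and 0.892 ± 0.0257% in leg (SD, n = 2 each). Differences were -0.615 percentage points for IFM minus leg, -0.311 for IFM minus brain and -0.304 for brain minus leg, each with a two-sided exact permutation p of 0.333, the smallest that 2 against 2 libraries allow. These shares depend on how many reads the other event types took: event reads numbered 1798695 and 3507067 in IFM, with 794567 and 608528 in brain and with 569194 and 554656 in leg. Added over the libraries of a tissue, IR reads were 14406 in IFM, with 8218 in brain and with 10017 in leg. Mean counts over annotated exons per library were 1.37e+08 in IFM, with 6.94e+07 in brain and with 7.74e+07 in leg. Relative to these exon counts, the tissues lay closer together than in the shares of event reads. The order of brain and leg turned with the read end: with end 1 alone the mean shares were 0.423% in IFM, against 0.873% in brain and against 1.54% in leg, and with end 2 alone 0.124% in IFM, with 0.320% in brain and with 0.279% in leg. As a share of events with at least 1 read, IR took 1.93% and 2.09% in IFM, against 1.85% and 1.82% in brain and against 1.79% and 1.75% in leg.

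In normalized CPM (event reads scaled to a common library total by TMM), events before a start only, without a gene end at their other side, summed to 2932 and 3056 in IFM, with 3172 and 3038 in brain and with 6768 and 7400 in leg. A single region before Cpr64Ac, a cuticle protein gene, held much of the leg value. Without it the sums were 2895 and 3013 in IFM, against 3043 and 2912 in brain and against 4220 and 4744 in leg. Whole introns summed to 589 and 483 CPM in IFM, with 999 and 783 in brain and with 1020 and 1103 in leg, with both IFM libraries below the others. Parts of introns ran the other way for leg, at 405 and 827 CPM in IFM, against 603 and 353 in brain and against 370 and 192 in leg, where the groups overlapped. A single event at CG43897 held 142 of the 473 reads of such parts in IFM 1 and 725 of the 1548 in IFM 2.

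**Figure D1:**
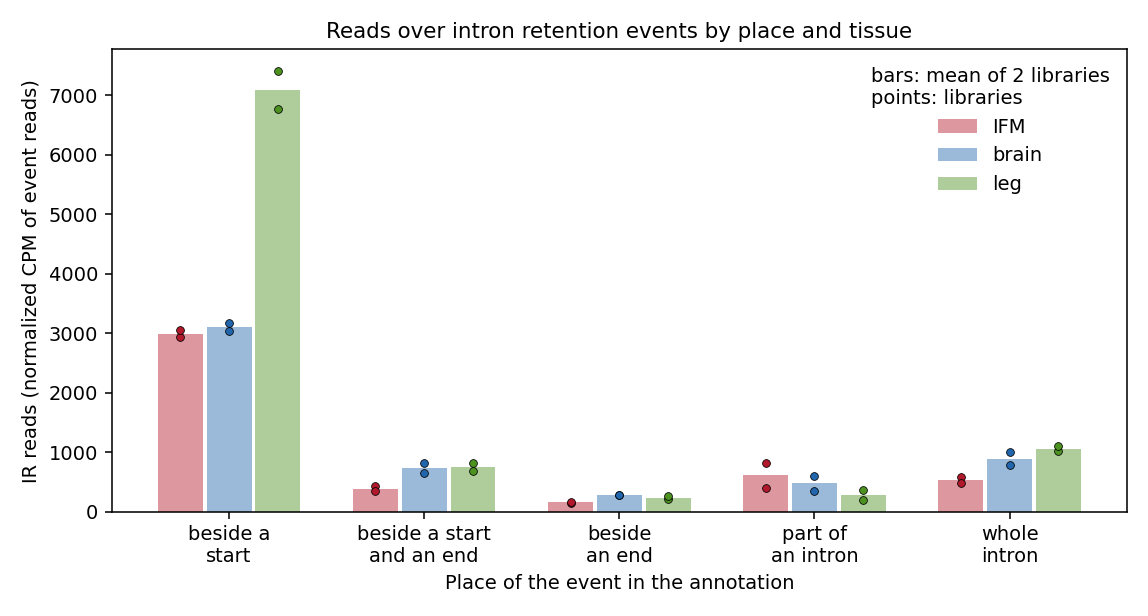
IR reads by the place of the event in the annotation; the vertical axis is normalized CPM of event reads, bars are means of the 2 libraries of IFM, brain and leg, and points are libraries. Events before a transcription start dominate in each tissue and are highest in leg (6768 and 7400 CPM), and whole introns are lowest in IFM (589 and 483 CPM).

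Summed over events, the read ends set start-side events apart from introns. A paired-end library gives end 1 and end 2 of each fragment, and the 6 other event types had 40.8% to 52.8% of their reads on end 1. IR events had 25472 reads of end 1 and 7169 of end 2, or 78.0% on end 1. The share was 79.5% and 76.4% in IFM, with 71.4% and 72.2% in brain and with 84.1% and 83.7% in leg, above that of the other types in each library by 23.1 to 35.8 percentage points. The mean difference was 28.7 points (exact paired permutation test, two-sided, p = 0.03125, n = 6 libraries, the smallest p possible). In sums it went with place: events before a start only had 89.8% of reads on end 1, those between a gene end and a start 80.7%, whole introns 51.7%, parts of introns 45%, and events after a transcript end 33.7%. Single whole introns could stand far from their sum. Of those with at least 50 reads, sesB had 217 of end 1 and 1 of end 2, CG9297 194 and 19, Dh31 65 and 0, and asRNA:CR45135 63 and 0. CG30423 had 27 and 49, Gdh 35 and 49, and Lmpt 1 and 65. Within libraries, events before a start exceeded whole introns by 31.0 to 42.4 points (mean 36.5, exact paired permutation test, two-sided, p = 0.03125, n = 6). The paper's supplement calls the libraries stranded and paired, but which strand end 1 reads is not given there. How far library preparation bears on the bias was not tested.

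Single events were sparse. The median was 2 reads over the 6 libraries, against 7 for exon skipping, the most common type. Of the 4283 events, 2411 (56.3%) had 2 or more reads, 499 (11.7%) had 10 or more, and 86 (2.01%) had 50 or more. These 86 held 47.7% of the IR reads, and the 3 events with at least 500 reads held 16.1%. A read was seen in 1 library only for 3192 events (74.5%), against 31.5% of exon-skipping events, and in all 6 libraries for 33 events. With both libraries of a tissue added, 2260 events had a read in IFM, against 1741 in brain and against 1224 in leg, of which 369, 293 and 214 had reads in both libraries of that tissue. At 150 reads in the tissue total, the threshold that the study set for about 1 RPM, IR gave 14 of 3525 events in IFM (0.397%, Wilson 95% interval 0.237 to 0.666), 1 of 1590 in brain (0.0629%, 0.0111 to 0.355) and 7 of 1004 in leg (0.697%, 0.338 to 1.43). Of these, 12 in IFM, with 1 in brain and with 6 in leg were start-side events. With thresholds scaled to the depth of each tissue, the counts were 7 in IFM, with 3 in brain and with 7 in leg. Such intervals cover counting error only.

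Event borders changed from library to library, so that reads next to 1 start were often counted in several events. By the paper's method, fortuna fills gaps between annotated exons with segments and splits these at splice sites found in spliced reads. A read counts for a segment that it overlaps. An event's border thus marks the edge of a segment and need not be reached by its reads. How far such splitting made the borders move was not tested. Before Mlc1, which encodes a light chain of muscle myosin (region at 3R:27660178-27662438, BDGP6, with unc80 as the other neighbour), the reads of IFM 1 fell in an event of bases 1 to 26 upstream of the annotated start (208 reads). In IFM 2 the event ended at base 18 (453 reads), in leg 1 at base 938 (117 reads) and in leg 2 at base 7 (104 reads). No read of these events was in any other library, although all 4 begin at the same base.

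Act88F, the actin of flight muscle, had 247 reads in IFM 1 in an event of bases 1 to 1201 upstream. In IFM 2 it had 491 reads in an event of bases 1 to 26, and each event had 0 reads in the other IFM library. Pgm1, which encodes phosphoglucomutase of glycogen metabolism, had 137 reads in IFM 1 in an event of bases 1 to 3. In IFM 2 it had 240 in an event of bases 1 to 54. In these the border at the start was shared and the outer border moved, while a few small events, such as 2 reads of IFM 1 over bases 4 to 1085 before Pgm1, began farther out. Of the 516 library values of the 86 events with at least 50 reads, 254 were 0, and for 165 of these the same library had reads in an overlapping IR event.

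**Figure D2:**
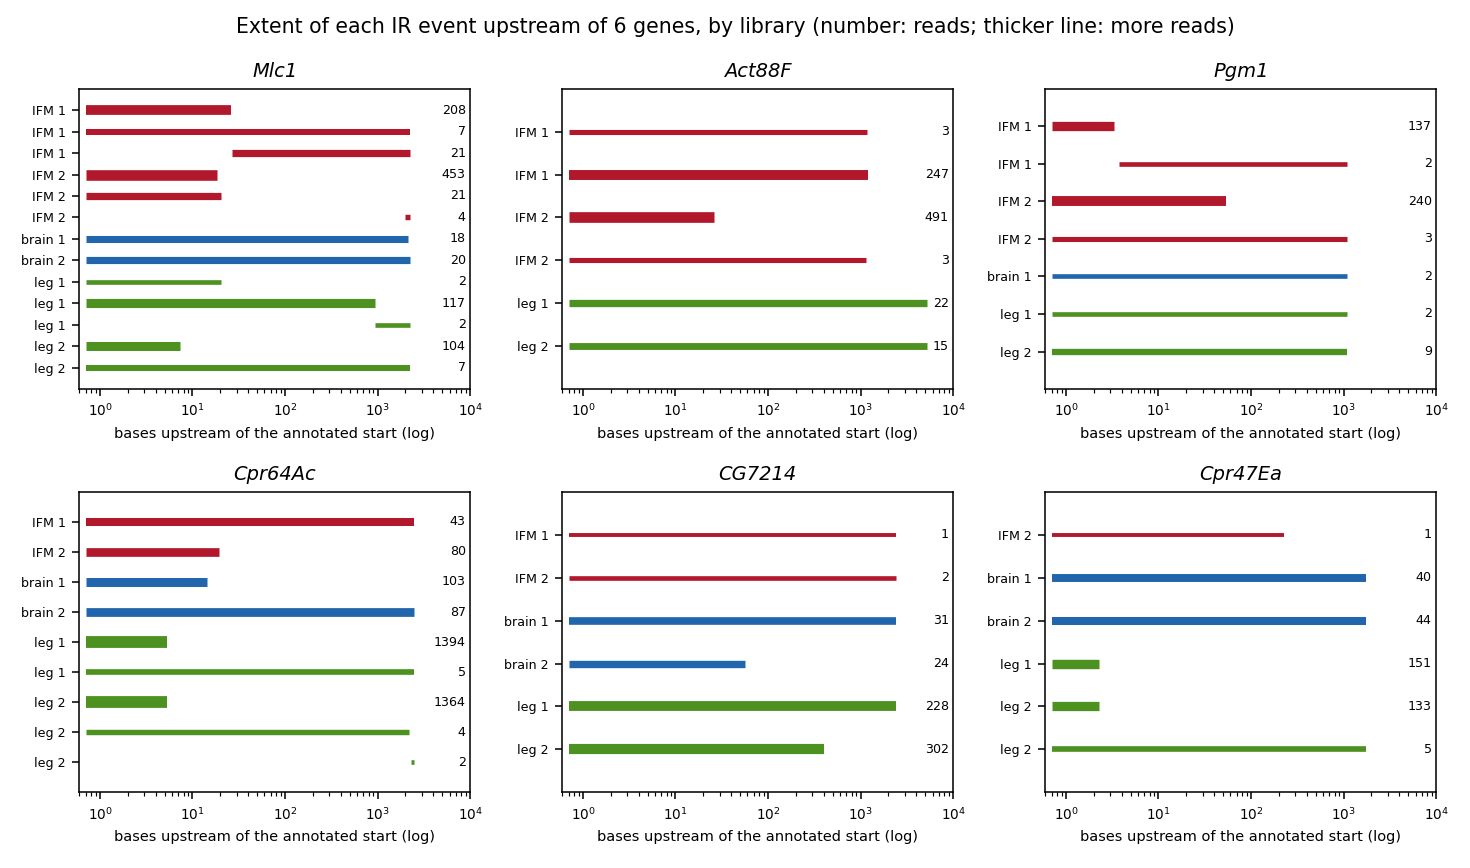
Extent of each IR event upstream of Mlc1, Act88F, Pgm1, Cpr64Ac, CG7214 and Cpr47Ea, in bases from the annotated start on a log axis, with 1 line per event and library (IFM red, brain blue, leg green) and its reads at the right. The lines show event borders, which reads need not reach. They begin at base 1 in most cases and end at different bases in different libraries. Before Act88F, the event with 247 reads of IFM 1 ends at base 1201, and that with 491 reads of IFM 2 at base 26.

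Overlapping IR events were therefore also summed into regions, which gave 3564 regions, 453 of them with 2 or more events. Of events with at least 20 reads in a tissue, 46 of 97 in IFM, 29 of 70 in brain and 23 of 56 in leg had 1 replicate at 0. For regions this held for 2 of 89 in IFM, 2 of 71 in brain and 0 of 51 in leg. The SD of the log2 ratio between replicates was 4.80 in IFM, against 4.02 in brain and against 4.47 in leg for events, and 1.35, 1.39 and 1.18 for regions. The values below are region sums in reads, unless a single event is named. In all, 84 regions had at least 50 reads, 65 of them on the start side. The filter was passed mainly through the tissue where a region was high: this tissue was IFM for 35 regions, brain for 23 and leg for 26. Some regions, such as those of CG43897, TpnC4, asRNA:CR45135 and Smg6, met it through IFM reads alone. Their fold floors and p-values below describe regions that were kept because they were high in IFM. In the same way, the regions of Amt with CG42404, nSyb, Dh31 and Myo28B1 with Slob met the filter only through their brain reads. That of MtnD and MtnE met it only through its leg reads. Fold floors and p-values of these describe regions kept because they were high in that tissue.

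The regions with most reads in IFM included those at COX7AL2, Act88F, Mlc1, Pgm1 and COX7B. Fold changes are log2 values with standard errors from edgeR's quasi-likelihood test on regions and other events together, with p adjusted by Benjamini-Hochberg over all of them. In bulk tissue, fewer cells of a type and less RNA per cell cannot be told apart. The region before Act88F (3R:15434739-15439968) had 250 and 494 reads in IFM, with 0 and 0 in brain and with 22 and 15 in leg. It was 2.78 ± 0.50 higher in IFM than in leg (adjusted p = 0.0021) and at least 122-fold higher in IFM than in brain, where the floor is 3 reads over the 2 brain libraries. Mlc1 had 236 and 478 reads in IFM, against 18 and 20 in brain and against 121 and 111 in leg. IFM exceeded brain by 3.15 ± 0.46 (adjusted p = 0.000226), and IFM and leg differed by 0.07 ± 0.41 (adjusted p = 0.905).

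Pgm1 (3L:16128532-16129616) had 139 and 243 reads in IFM, with 2 and 0 in brain and with 2 and 9 in leg, with IFM higher by 3.56 ± 0.75 than leg (adjusted p = 0.00393) and by 6.42 ± 0.95 than brain (adjusted p = 0.000254). TpnC4, the flight muscle troponin C, shared a region with Ugt50B3 of 52 and 92 reads in IFM and none in the brain and leg libraries, at least 23.6-fold higher in IFM than in brain and at least 16.8-fold higher than in leg. The region at jp, the gene for junctophilin, which ties the plasma membrane to calcium stores, had 91 and 96 reads in IFM, against 6 and 1 in brain and against 16 and 31 in leg. It was higher in IFM than in brain by 3.77 ± 0.77 (adjusted p = 0.00168) and differed from leg by 0.53 ± 0.63 (adjusted p = 0.511).

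Among genes of the respiratory chain, COX7AL2, named as a subunit of cytochrome c oxidase, had the largest IFM value. Its region (2L:2193011-2197308), in an intron of the gene before an inner start, was 1 event with the same borders in all libraries, at 690 and 855 reads in IFM, with 3 and 4 in brain and with 34 and 33 in leg. IFM was higher than leg by 3.05 ± 0.44 (adjusted p = 0.00047) and than brain by 6.76 ± 0.56 (adjusted p = 1.32e-05). The other such regions were lower. COX7B, shared with Sec3, had 79 and 162 reads in IFM, against 5 and 9 in brain and against 7 and 1 in leg, higher in IFM by 3.0 ± 0.73 over brain (adjusted p = 0.00419, lost with total event reads as the only scaling at 0.0575, with a range of 0.000233 to 0.0575 over its alternatives) and 3.35 ± 0.78 over leg (adjusted p = 0.00611).

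ND-B12, which encodes a subunit of complex I, had 77 and 127 reads in IFM, with 4 and 13 in brain and with 24 and 22 in leg. It differed from the regions above in its read ends, with 17.2% of reads on end 1. IFM was higher than brain by 2.50 ± 0.65 (adjusted p = 0.00605), while the difference from leg was 0.63 ± 0.59 (adjusted p = 0.402). With total event reads as the only scaling, IFM over brain no longer passed for ND-B12 (adjusted p = 0.104; 0.00153 to 0.104 over its alternatives).

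Gpo1, the mitochondrial glycerol-3-phosphate dehydrogenase of the shuttle that feeds flight muscle, had its reads in the 163 bases at 2R:15861719-15861881, inside the gene before an inner start. The region held 91 and 163 reads in IFM, against 73 and 75 in brain and against 14 and 19 in leg. IFM was higher than leg by 1.40 ± 0.49 (adjusted p = 0.0378, a call lost with any 1 of the 4 IFM and leg libraries left out, at 0.0555 to 0.171, and ranging from 0.00702 to 0.314 over all alternatives) and brain higher than leg by 1.68 ± 0.49 (adjusted p = 0.022), and IFM and brain differed by -0.27 ± 0.45 (adjusted p = 0.613). The unit of counting decided what the IFM data showed here: the event that spans all 163 bases had 1 and 0 reads in IFM against 14 and 19 in leg, since the IFM reads were in events with other borders. The brain over leg call was lost without brain replicate 2 (adjusted p = 0.0527) or leg replicate 1 (adjusted p = 0.0897), and ranged from 0.00338 to 0.116 over all alternatives.

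The leg value was highest for the region at the cuticle protein gene Cpr64Ac, which lies in an intron of another gene. This region (3L:4212916-4215378, shared with Cpr64Ad) had 43 and 80 reads in IFM, with 103 and 87 in brain and with 1399 and 1370 in leg, 3082 in all and the most of any region. It was lower in IFM than in leg by 6.02 on the log2 scale (-6.02 ± 0.42, adjusted p = 1.52e-05), lower in IFM than in brain (-1.67 ± 0.36, adjusted p = 0.00214, a call lost with no filter at 0.119, with a range of 2.03e-07 to 0.119 over its alternatives) and lower in brain than in leg (-4.35 ± 0.39, adjusted p = 0.00018). Most of its leg reads, 1394 and 1364, were in an event of the 5 bases next to the start. Cpr47Ea (2R:11253399-11255166), another cuticle protein gene, had 0 and 1 reads in IFM, against 40 and 44 in brain and against 151 and 138 in leg. Brain was below leg by 2.25 on the log2 scale (-2.25 ± 0.48, adjusted p = 0.00446), a call lost with exon library sizes (adjusted p = 0.0755, with a range of 1.65e-05 to 0.0755 over its alternatives).

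The region between ATPsynGL and CG7214 had 1 and 2 reads in IFM, with 31 and 24 in brain and with 228 and 302 in leg, lower in IFM than in leg (-8.81 ± 0.63, adjusted p = 1.86e-05) and lower in brain than in leg (-3.76 ± 0.46, adjusted p = 0.000392). Inside CG9297, for which no role is given here, 24 and 24 reads were counted before an inner start in IFM, against 8 and 4 in brain and against 304 and 329 in leg. The metallothionein genes MtnD and MtnE, whose products bind metal ions, shared a region of 1 and 5 reads in IFM, with 0 and 0 in brain and with 44 and 56 in leg, higher in leg than in IFM (-5.53 ± 0.77 for IFM over leg, adjusted p = 0.000555). The cell types of the leg differ in more than muscle: the summed exon CPM of 4 epidermis and cuticle markers was 133 and 89.98 in IFM, against 120 and 87.6 in brain and against 939 and 900 in leg. Cpr47Ef and kkv carried that sum, while TwdlE (mean 19.1 CPM in IFM, against 5.25 in brain and against 15.4 in leg) and dsx-c73A (3.31 in IFM, against 0.0791 in brain and against 0.511 in leg) were highest in IFM, and the part of cell makeup in these region values was not tested.

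In brain the top region stood between Amt, an ammonium transporter gene, and CG42404 (3R:15249138-15250093), with 2 and 0 reads in IFM, with 180 and 135 in brain and with 3 and 3 in leg. It was lower in IFM than in brain (-8.00 ± 0.84, adjusted p = 3.88e-05) and higher in brain than in leg (5.19 ± 0.73, adjusted p = 0.000697). The region of atms and tacc had 1 and 0 reads in IFM, against 73 and 34 in brain and against 6 and 10 in leg. The antisense RNA gene asRNA:CR43426 had 0 and 1 reads in IFM, with 81 and 19 in brain and with 0 and 0 in leg, so that the brain replicates lay far apart.

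Smaller regions with most reads in brain included those of nSyb, Galphao and Slob. The event of 48 bases before an inner start of nSyb, the synaptobrevin of synaptic vesicles, had 1 and 0 reads in IFM, against 24 and 37 in brain and against 4 and 0 in leg, and IFM was below brain (-6.45 ± 1.28, adjusted p = 0.00142). Galphao, a G protein subunit abundant in neurons, had 0 and 1 reads in IFM, with 41 and 21 in brain and with 0 and 2 in leg. The region of Myo28B1 and Slob, a partner of the Slowpoke potassium channel, had 0 and 0 reads in IFM, against 28 and 30 in brain and against 0 and 3 in leg, all on end 2. It was at least 39.3-fold higher in brain than in IFM, but it had met the filter only through its brain reads.

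**Figure D3:**
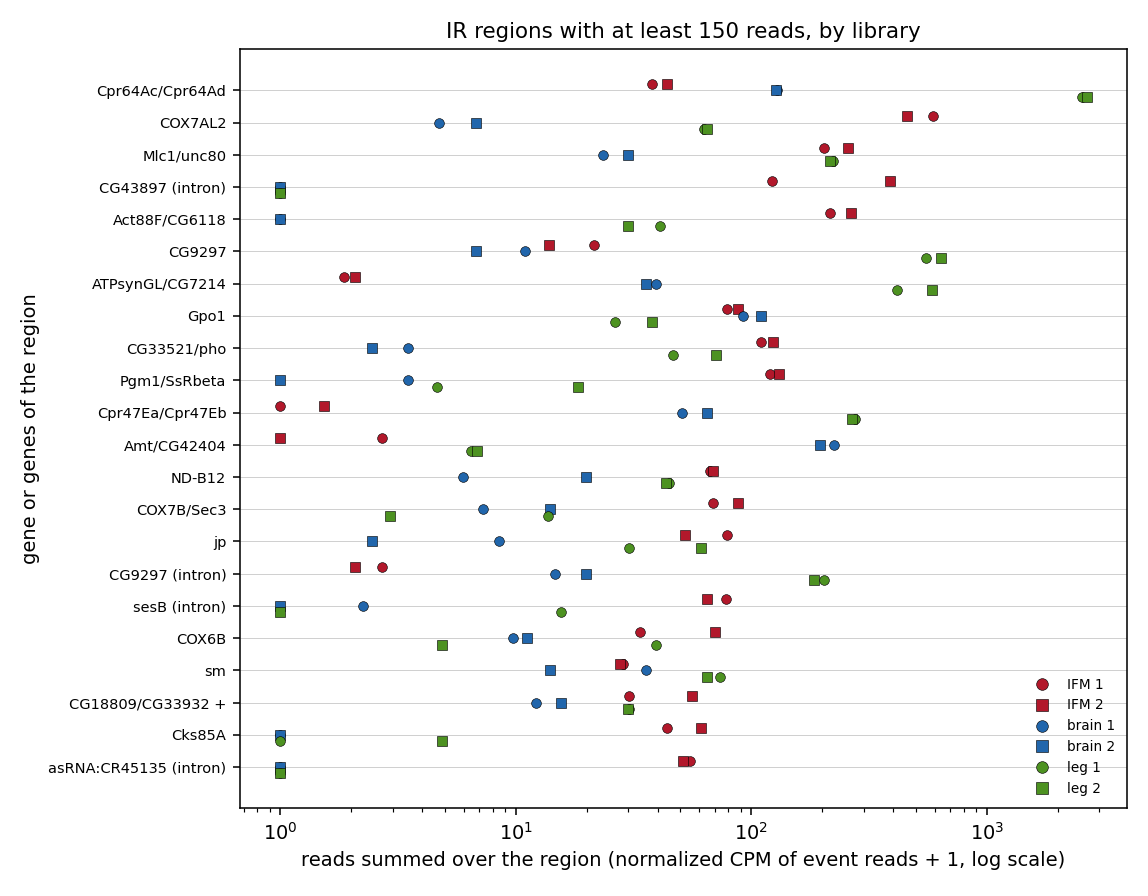
The 22 IR regions with at least 150 reads, by library. The horizontal axis is normalized CPM of event reads plus 1 on a log scale, and circles are replicate 1 and squares replicate 2 of IFM, brain and leg. The mark "intron" is given to regions inside introns that touch no annotated start. Unmarked regions lie before a start, and several of them, such as COX7AL2, Gpo1 and Cpr64Ac, also lie in an intron. Replicates lie close together and tissues apart for most regions; Cpr64Ac is highest in leg, COX7AL2 and Act88F in IFM and Amt/CG42404 in brain.

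For single events, the share of IR events that passed the test was close to that of events of all types. Of 86 IR events tested, 41 passed in IFM over leg (11 higher, 30 lower), where 42.7% of all events of any type passed (24.7% higher, 18.0% lower). In IFM over brain 54 passed (29 higher, 25 lower; 63.5% of all events, 33.3% higher and 30.2% lower), and in brain over leg 30 passed (10 higher, 20 lower; 34.8% of all, 18.4% higher and 16.4% lower). Many of these calls had a replicate of 1 of the 2 tissues at 0: 19 of 41, 35 of 54 and 16 of 30. With reads summed over the region, 34 of the 41, 47 of the 54 and 29 of the 30 called events lay in a region called in the same direction. Read end 2 alone left 6, 7 and 4 IR events called in the 3 comparisons. The region went the opposite way for 4, 5 and 1 events, and was itself called in that direction for 1, 3 and 1.

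Of 84 regions, 46 passed in IFM over leg (19 higher, 27 lower), where 25.2% of all units were higher and 18.3% lower. In IFM over brain 60 passed (31 higher, 29 lower; 33.7% and 30.5% of all), and in brain over leg 40 passed (16 higher, 24 lower; 18.9% and 16.8% of all). The median log2 fold change of regions was -0.56 in IFM over leg, 0.89 in IFM over brain and -0.56 in brain over leg, against 0.32, 0.24 and 0 over all units. The balance of higher and lower calls moved with the scaling. With library sizes taken from exon counts, IFM over leg gave 33 higher and 29 lower events and 26 higher and 23 lower regions, and brain over leg gave 17 and 21 events and 19 and 19 regions. With total event reads as the only scaling, IFM over brain gave 7 higher and 27 lower events and 18 higher and 34 lower regions. Total event reads moved the median fold change of all events by -0.72 in IFM over leg, -1.11 in IFM over brain and 0.29 in brain over leg, and exon library sizes moved it by 0.69, 0.05 and 0.60.

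IR regions followed the expression of their genes in many cases. Locus expression, the level of a gene, was taken from the counts of its annotated exon bins, summed per gene. Of the 84 regions, 42 had exactly 1 gene with such a level. Among called regions with 1 tested gene, the gene was called in the same direction for 14 of 20 in IFM over leg, 21 of 28 in IFM over brain and 21 of 23 in brain over leg. Over all genes, 29.8% were higher and 27.6% lower in IFM over leg, 33.1% and 33.5% in IFM over brain, and 22.6% and 20.9% in brain over leg. As a description across regions, which share libraries and are not independent, the fold changes of region and locus correlated with r = 0.67 and rho = 0.72 (n = 42) in IFM over leg, 0.68 and 0.66 (n = 41) in IFM over brain, and 0.85 and 0.86 (n = 38) in brain over leg.

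The regions were then tested with the expression of the gene as an offset, which asks whether IR reads differed beyond the gene. Of 42 regions, 13 passed in IFM over leg (3 higher, 10 lower; 23.9% of all units with 1 gene passed), 14 in IFM over brain (5 higher, 9 lower; 25.1% of all) and 2 in brain over leg (1 higher, 1 lower; 2.57% of all). The last count fell to 0 without brain replicate 1 or without leg replicate 1, and 11 regions had an unadjusted p under 0.05 in edgeR with all libraries. For single events the counts were 13 of 60 (3 higher, 10 lower; 22.8% of all), 9 of 60 (2 higher, 7 lower; 24.0% of all) and 3 of 60 (1 higher, 2 lower; 2.23% of all). COX7AL2, with a mean locus CPM of 2055 in IFM, with 18.4 in brain and with 305 in leg, differed little once this was taken into account, by 0.33 ± 0.41 in IFM over leg (adjusted p = 0.584) and 0.03 ± 0.55 in IFM over brain (adjusted p = 1).

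Gpo1 showed the reverse. Its locus CPM was 7453 in IFM, against 270 in brain and against 1117 in leg, so its reads per unit of expression were lower in IFM than in brain (-5.03 ± 0.53, adjusted p = 0.000252) and higher in brain than in leg (3.72 ± 0.52, adjusted p = 0.00903). In IFM over leg the value was -1.31 ± 0.49 (adjusted p = 0.0761). For Zasp52, a Z-disc protein, a region after an annotated transcript end (12 and 24 reads in IFM, with 0 and 0 in brain and with 20 and 24 in leg) was lower in IFM than in leg relative to the locus (-3.39, adjusted p = 0.0111). The region before an inner start of Mf, a myofibril protein gene, had 3 and 9 reads in IFM, with 16 and 2 in brain and with 25 and 28 in leg and was lower in IFM than in brain relative to the locus (-4.19, adjusted p = 0.0114).

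Inside introns, the highest counts came from few places. At CG43897, 3 bases at the acceptor side of an intron (3L:9832925-9832927) had 142 and 725 reads in IFM and none in brain or leg, split evenly between read ends (472 of end 1, 395 of end 2). This is at least 142-fold higher in IFM than in brain and at least 101-fold higher than in leg, with the floor at 3 reads over 2 libraries. The gene itself had a mean locus CPM of 7664 in IFM, against 301 in brain and against 3797 in leg. The leg libraries thus expressed it and had no read counted as IR over these bases. Reads over them that were counted under another event type or a longer segment would not show here, and this was not tested. Relative to the locus the edgeR test gave an adjusted p of 0.00259 for IFM over leg and 0.0247 for IFM over brain. With DESeq2 in place of edgeR and without the offset, the adjusted p of the event was 0.0942 for IFM over leg and 0.0578 for IFM over brain, the highest over its alternatives, while the lowest were 1.46e-16 and 2.81e-18. The IFM replicates were uneven, at 122 and 387 normalized CPM.

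Fas1, a cell adhesion protein of axons, had a stretch of an intron (3R:16633854-16634373) with 2 and 5 reads in IFM, with 55 and 42 in brain and with 2 and 0 in leg, 8.49% of them on end 1. IFM was below brain by more than the gene's own difference (-3.16 ± 0.80 relative to the locus, adjusted p = 0.0183). Intron parts of wupA, the troponin I gene, had 12 and 49 reads in IFM, against 0 and 0 in brain and against 0 and 2 in leg. Zasp52 and wupA both make many muscle isoforms, and which isoform the reads belong to cannot be read from these counts.

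Whole introns, the events that fit the name, were spread thinly over many genes. Of the 1194 introns, 937 were seen in 1 library only, 66 had at least 10 reads, and 7 had at least 50. Reads in both libraries were found for 89 whole introns in IFM, with 56 in brain and with 43 in leg. No share of transcripts that keep an intron can be given, since reads spliced over annotated introns were not part of the event tables.

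The highest by reads summed over all libraries was the intron of sesB, the ADP/ATP carrier of the mitochondrial inner membrane (X:10782301-10782379, 79 bases within the coding region). It had 90 and 119 reads in IFM, against 1 and 0 in brain and against 8 and 0 in leg, higher in IFM than in leg by 3.22 ± 0.97 (adjusted p = 0.0226) and than in brain by 6.46 ± 1.28 (adjusted p = 0.00182) in the event test. The call against leg was lost without IFM replicate 1 (adjusted p = 0.0793) or IFM replicate 2 (adjusted p = 0.0561), and ranged from 0.000483 to 0.0903 over all alternatives. Of its 218 reads, 217 were of end 1, against 51.7% of reads summed over all whole introns. The locus overlaps that of Ant2, so the event was not tested relative to locus expression.

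CG9297 had the highest whole intron in leg (3R:13775170-13775227, 58 bases, coding). This intron was above that of sesB in normalized CPM, at 164 and 184 in leg, against 77.1 and 63.6 for sesB in IFM. Its reads were 2 and 2 in IFM, with 11 and 13 in brain and with 90 and 95 in leg, and IFM was lower than leg (-6.89 ± 0.66, adjusted p = 0.000105) and lower than brain (-3.47 ± 0.67, adjusted p = 0.00158). Relative to locus expression IFM stayed lower than leg (-3.63 ± 0.64, adjusted p = 0.00535) and lower than brain (-4.82 ± 0.68, adjusted p = 0.00184), and brain and leg differed by 1.20 ± 0.51 (adjusted p = 0.271).

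In Lmpt, a muscle gene with LIM domains, an intron of 186 bases (3L:16902192-16902377) had 7 and 1 reads in IFM, against 2 and 1 in brain and against 20 and 35 in leg, of which 65 of 66 were of end 2. It was lower in IFM than in leg (-4.09 ± 0.97, adjusted p = 0.00821), and also relative to the locus (-4.74 ± 0.98, adjusted p = 0.0107). Gdh, the glutamate dehydrogenase gene, had 0 and 16 reads in IFM, with 1 and 0 in brain and with 25 and 42 in leg over its last intron of 335 bases (3R:23936646-23936980), lower in IFM than in leg (-3.72 ± 1.04, adjusted p = 0.017). With overlapping events summed, the Gdh region had 3 and 35 reads in IFM, with 1 and 1 in brain and with 25 and 42 in leg. The difference from leg was then smaller, at -2.50 ± 0.81 (edgeR, adjusted p = 0.0288). CG30423 had 7 and 4 reads in IFM, against 8 and 13 in brain and against 30 and 14 in leg over a first intron of 105 bases.

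In brain the first intron of Dh31, a diuretic neuropeptide gene, was highest (2L:8506707-8506792, 86 bases in the 5′ UTR). It had 1 and 0 reads in IFM, with 33 and 30 in brain and with 0 and 1 in leg. IFM was lower than brain (-6.47 ± 1.13, adjusted p = 0.000942) and brain higher than leg (5.30 ± 1.19, adjusted p = 0.00746), but relative to locus expression, at a mean CPM of 4.81 in IFM, against 116 in brain and against 3.38 in leg, the differences were -2.31 ± 1.37 (adjusted p = 0.231) and 0.42 ± 1.57 (adjusted p = 0.954).

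The seventh whole intron with at least 50 reads lies in asRNA:CR45135, at 2R:10541774-10541840. The event had 63 reads, all from IFM 1, and an overlapping part event held the 94 reads of IFM 2. As a region it had 63 and 94 reads in IFM and none in brain or leg, at least 25.7-fold higher in IFM than in brain and at least 18.3-fold higher than in leg. Locus expression was low in all tissues (2.13 CPM in IFM, against 3.60 in brain and against 1.49 in leg), and relative to it the region was higher in IFM than in leg (adjusted p = 0.00742) and than in brain (adjusted p = 0.0022) by edgeR. Reads of an antisense gene and of the gene on the other strand cannot be told apart here.

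Below 50 reads, the introns of shi, Cadps and Sema1a had most of their reads in brain. An intron of shi, which encodes dynamin for vesicle recycling (X:15899075-15899443), had 0 and 0 reads in IFM, with 21 and 15 in brain and with 0 and 0 in leg. Cadps, a priming factor of dense-core vesicles, had 0 and 0 reads in IFM, against 14 and 12 in brain and against 0 and 1 in leg. In Sema1a, an axon guidance gene, the values were 0 and 1 in IFM, with 27 and 10 in brain and with 1 and 1 in leg. Mau2, which encodes a loader of cohesin, had 9 and 27 reads over its only intron in IFM and none in the other tissues, while its mean locus CPM was 3.84 in IFM, against 6.43 in brain and against 5.90 in leg.

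Tested at a minimum of 10 reads, 66 whole introns gave 3 higher and 7 lower in IFM over leg, 8 higher and 19 lower in IFM over brain, and 3 higher and 3 lower in brain over leg. For comparison, 8535, 17291 and 7344 of the 46884 events of all types that were tested passed in the same fit.

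Since fortuna counts only sequence outside every annotated transcript, an intron that holds an annotated exon could hardly be counted as IR. An exon lay within 0.586% of the whole introns with an IR event, against 40.3% of the 8665 other annotated introns of the same genes and 28.2% of all 60508 annotated introns. Lengths are therefore compared among introns without an exon inside. There the median was 109 bases for 1187 introns with an IR event, against 95 bases for 5169 others of the same genes and 70 bases for all 43457. Introns longer than 1000 bases made up 9.52%, against 14.6% and 11.6%. Without this restriction the medians were 111, 339 and 101 bases, so that the order of the first pair turned with it.

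Of the 1194, 1005 (84.2%) separated coding exons, 148 (12.4%) lay in 5′ UTRs, 25 (2.09%) in 3′ UTRs and 16 (1.34%) in noncoding transcripts. Among introns without an exon inside, 84.2% of those with an IR event were coding, against 88.8% of the others of the same genes and 88.2% of all, and 12.4% lay in 5′ UTRs, against 9.38% and 8.37%. First introns made up 27.9%, against 14.5% and 28.4%. Of the coding ones, 34.4% had a length that is a multiple of 3, which keeps the reading frame unless a stop codon occurs, against 32.9% and 32.9%. These are descriptions without a test, since introns of 1 gene are not independent.

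**Figure D4:**
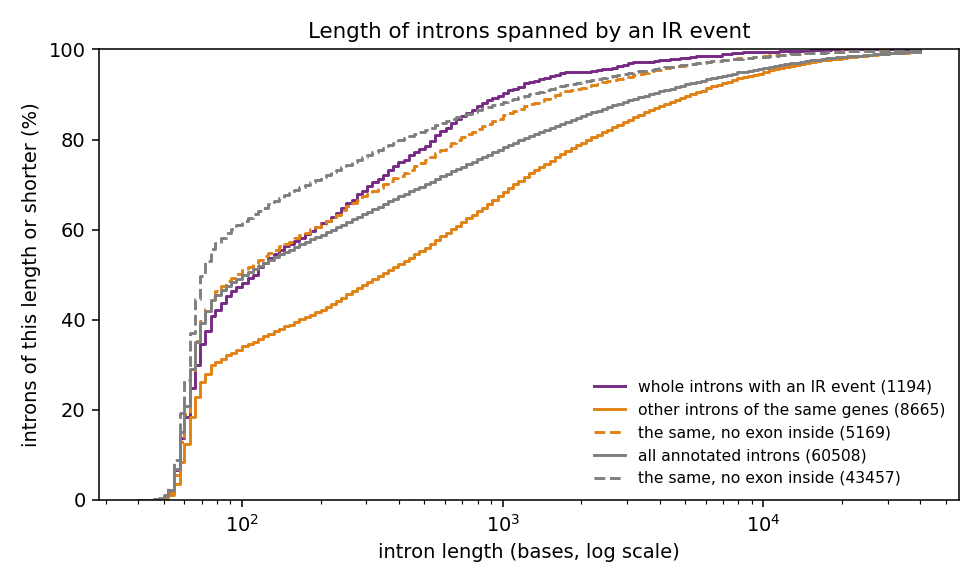
Cumulative percentage of introns by length (log axis, bases) for the 1194 whole introns with an IR event, the 8665 other annotated introns of the same genes and all 60508 annotated introns; dashed lines leave out introns with an annotated exon inside (5169 and 43457 left). The curve of introns with an IR event lies near the dashed curve of the same genes (medians 109 and 95 bases without exons inside) and far from the solid one (median 339).

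At the level of genes, 3534 had at least 1 IR event, and these include 2935 (23.7%) of the 12392 genes with exon counts. Most had few: 1124 genes had exactly 1 event that belonged to them alone, 107 had 5 or more, and 1194 events touched 2 or more genes. The 10 genes with most events of their own were mainly contractile. Tm1 (tropomyosin) had 29, Mhc (myosin heavy chain) 24, wupA and up (troponins I and T) 23 each, CG9297 18, Mlc1 17, the calcium pumps PMCA and SERCA 15 and 14, CG1674 15 and Zasp52 14. Mical also had 14 and so tied with SERCA and Zasp52. Event number did not stand for reads. The 29 events of Tm1 had 33 and 56 reads in IFM, with 31 and 21 in brain and with 51 and 26 in leg, and the 24 of Mhc had 16 and 31 in IFM, against 8 and 0 in brain and against 17 and 6 in leg, although Mhc had a mean locus CPM of 151129 in IFM, with 4772 in brain and with 56568 in leg.

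The counts by list stand beside 23.7% of all measured genes with an IR event. Of the 60 events with at least 50 reads and 1 measured gene, 49 had a gene in the top 10% of locus expression in the event's highest tissue. How far expression sets the list counts was not tested. By list, 29 of 32 measured sarcomere and contraction genes had an IR event, with 830 and 1735 reads in IFM, against 101 and 79 in brain and against 394 and 334 in leg, much of it before Mlc1 and Act88F. Of 12 muscle calcium genes 11 had one, with SERCA at 12 and 15 reads in IFM, with 32 and 0 in brain and with 67 and 53 in leg, and the calcium-binding protein gene Scp1 at 18 and 26 in IFM, against 0 and 0 in brain and against 47 and 17 in leg. Of 47 genes of mitochondrial energy metabolism 34 had one, with 261 and 465 reads in IFM, with 123 and 138 in brain and with 34 and 70 in leg. Cyt-c-p, the cytochrome c of respiration, had 29 and 71 reads in IFM, against 21 and 13 in brain and against 0 and 9 in leg between it and Cyt-c-d, and COX4 20 and 46 in IFM, with 9 and 1 in brain and with 4 and 4 in leg.

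Synaptic release genes showed reads almost only in brain. Of 23 measured, 16 had an IR event, with 4 and 7 reads in IFM, against 202 and 125 in brain and against 10 and 9 in leg, led by nSyb (2 and 1 in IFM, with 63 and 59 in brain and with 4 and 0 in leg) and shi (0 and 2 in IFM, against 62 and 38 in brain and against 0 and 0 in leg). The list's locus expression was lower in IFM than in brain for 23 of 23 genes, against 33.5% of all genes (median log2 fold change -4.38). The mitochondrial list was higher in IFM than in brain for 45 of 47 genes and lower for 2 (median 3.44). The sarcomere list was higher for 23 of 32 and lower for 7 (median 3.44), against 33.1% and 33.5% of all genes. In IFM over leg, the mitochondrial list had 45 higher and 2 lower and the sarcomere list 10 higher and 13 lower, against 29.8% and 27.6% of all genes. Of 33 channels, receptors and pumps of neurons 27 had one, with 33 and 26 reads in IFM, with 146 and 98 in brain and with 32 and 26 in leg. Among them unc80, a subunit of a sodium leak channel, had 21 and 4 reads in IFM, against 15 and 27 in brain and against 2 and 8 in leg, and part of these lies in the region it shares with Mlc1. The acetylcholine receptor subunit gene nAChRalpha5 had 1 and 0 reads in IFM, with 26 and 8 in brain and with 3 and 0 in leg, and the potassium channel gene Shab had 2 and 5 in IFM, against 7 and 14 in brain and against 11 and 5 in leg.

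Cuticle, epidermis and tracheal genes had an IR event in 15 of 31 cases, with 46 and 9 reads in IFM, with 5 and 111 in brain and with 62 and 58 in leg. The leading member, Cpr64Ad, shared with Cpr64Ac an event of 43 and 0 reads in IFM, with 0 and 87 in brain and with 5 and 0 in leg. The next members had most reads in leg. Of these, pio, which encodes an apical matrix protein, had 0 and 1 reads in IFM, with 3 and 17 in brain and with 32 and 45 in leg. For mmy, an enzyme of chitin precursor synthesis, the values were 0 and 0 in IFM, against 1 and 0 in brain and against 10 and 4 in leg. Ribosomal protein genes, expressed in every cell, had one in 56 of 72 cases, with summed levels of 150 and 140 normalized CPM in IFM, with 131 and 139 in brain and with 131 and 151 in leg. RpL41 led with 48 and 62 reads in IFM, against 13 and 5 in brain and against 8 and 4 in leg, followed by RpS18 with 28 and 29 in IFM, with 5 and 12 in brain and with 16 and 13 in leg. RpL10 had 5 and 1 in IFM, against 15 and 15 in brain and against 8 and 11 in leg.

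Of 30 measured nuclear export factors and splicing regulators 17 had an IR event. bru1, the Bruno RNA-binding protein that directs flight muscle splicing, had 15 and 16 reads in IFM and none in brain and leg, with locus CPM of 1872 and 2026 in IFM, with 52.3 and 34.1 in brain and with 31.1 and 19.1 in leg. An intron of 142 bases in qkr58E-3, a KH-domain RNA-binding protein gene, had 1 and 5 reads in IFM, against 12 and 16 in brain and against 6 and 7 in leg. tra, which regulates sex-specific splicing, had 2 and 1 in IFM, with 5 and 19 in brain and with 12 and 0 in leg.

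The genes that splice introns or destroy RNA with retained introns differed moderately between tissues. Over all genes the median log2 fold change of locus expression was 0.08 in IFM over leg, -0.01 in IFM over brain and 0.03 in brain over leg. In IFM over brain the list medians were -0.37 for SR proteins and their kinases, -0.22 for U1 and U2 genes, -0.25 for tri-snRNP genes, -0.48 for the exon junction complex and export, -0.03 for nonsense-mediated decay and 0.02 for the exosome. The calls below stand beside 29.8% higher and 27.6% lower of all genes in IFM over leg, 33.1% and 33.5% in IFM over brain, and 22.6% and 20.9% in brain over leg, and many of these counts were near or below those shares. Of 10 SR proteins and their kinases, 2 were higher and 1 lower in IFM over leg, 2 higher and 5 lower in IFM over brain, and 5 higher and 1 lower in brain over leg. Doa, a kinase of SR proteins, had locus CPM of 1882 and 2667 in IFM, against 175 and 130 in brain and against 577 and 528 in leg, higher in IFM than in brain by 3.9 ± 0.29 (edgeR, adjusted p = 8.47e-05). The SR protein gene x16 ran the other way at 6.47 and 6.19 CPM in IFM, with 31.8 and 30.7 in brain and with 9.03 and 9.51 in leg, and so did Rsf1, a splicing repressor, at 22.7 and 16.9 in IFM, against 52.8 and 56.9 in brain and against 14.6 and 16.2 in leg. tra2, a splicing regulator of this list, stayed within 14.3 to 19.9 CPM over all libraries.

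Of 14 genes of the U1 and U2 particles and intron recognition, 2 were higher and 1 lower in IFM over leg, 2 higher and 3 lower in IFM over brain, and 4 higher and 0 lower in brain over leg. The subunits of U2AF, which binds the acceptor side, went opposite ways: U2af50 had 26.0 and 21.9 CPM in IFM, with 50.3 and 53.6 in brain and with 36.2 and 38.9 in leg, and U2af38 had 23.5 and 23.1 in IFM, against 11.3 and 13.3 in brain and against 11.6 and 11.6 in leg. IFM over brain was -1.12 ± 0.15 for U2af50 (adjusted p = 0.000921) and 0.92 ± 0.17 for U2af38 (adjusted p = 0.00348) by edgeR. Sf3b5 was lower in IFM than in brain (-1.03 ± 0.22, adjusted p = 0.00741), and Sf3b2 and Sf3b6 passed no comparison. Of 12 genes of the tri-snRNP and the catalytic step, 0 were higher and 3 lower in IFM over leg, 1 higher and 5 lower in IFM over brain, and 2 higher and 1 lower in brain over leg. Prp3, Bx42 and Prp38 were lower in IFM than in brain (log2 fold changes -1.19, -1.14 and -0.999), and Prp8 and Prp19 passed no comparison.

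Of 15 genes of the exon junction complex and mRNA export, 2 were higher and 1 lower in IFM over leg, 2 higher and 9 lower in IFM over brain, and 5 higher and 1 lower in brain over leg. mago, a core subunit of the complex, was higher in IFM, with 27.5 and 23.9 CPM in IFM, with 10.4 and 12.04 in brain and with 11.6 and 10.6 in leg, while its partner tsu stood at 11.9 and 12.1 in IFM, against 14.3 and 12.02 in brain and against 12.6 and 12.7 in leg. Nxt1 and RnpS1 were lower in IFM than in brain (-1.09 ± 0.23 and -0.80 ± 0.22, adjusted p = 0.00624 and 0.0185), and btz passed no comparison.

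Of 6 genes of nonsense-mediated decay, 1 was higher in IFM over leg, 2 were higher in IFM over brain, and in brain over leg 0 passed by edgeR, with 0 at an unadjusted p under 0.05. Upf2 was higher in IFM than in leg (0.71 ± 0.19, adjusted p = 0.019) and than in brain (0.89 ± 0.19, adjusted p = 0.00683), and Upf1 than in brain (0.67 ± 0.18, adjusted p = 0.0173). Upf3 and Smg5 passed no comparison. Smg6, the endonuclease of the pathway, had an IR region of its own at a coding intron of 54 bases (3R:25031154-25031207), with 28 and 34 reads in IFM and 0 in all brain and leg libraries. Its locus CPM was 70.3 and 90.4 in IFM, with 127 and 101 in brain and with 89.6 and 98.7 in leg. The region was at least 10.2-fold higher in IFM than in brain and at least 7.24-fold higher than in leg, and passed relative to the locus (adjusted p = 0.00726 and 0.0135, edgeR). It had met the filter through its IFM reads alone. Of 13 exosome and RNA surveillance genes, 2 were higher and 1 lower in IFM over leg, 3 higher and 2 lower in IFM over brain, and 3 higher and 0 lower in brain over leg. Rrp40, a cap subunit of the exosome, was higher in IFM, and Rat1, a nuclear exonuclease, lower than in brain (1.43 ± 0.39 and -1.20 ± 0.19, adjusted p = 0.0177 and 0.00219), while Csl4 was higher in brain than in leg (1.19 ± 0.38, adjusted p = 0.0449), and Rrp42 and Rrp46 passed no comparison.

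Marker sums followed the labels of tissue, though not every marker did. Summed exon CPM of 4 flight muscle genes was 188682 and 289260 in IFM, against 6304 and 4125 in brain and against 58833 and 59089 in leg, so reads of muscle genes were present in every library. Mhc carried most of the sum in each tissue, at a mean of 151129 in IFM, with 4772 in brain and with 56568 in leg. The means of fln, Act88F and TpnC4 were 19309, 60051 and 8482 in IFM. They were 101, 307 and 34.8 in brain and 468, 1776 and 149 in leg. Neuronal markers summed to 252 and 233 in IFM, with 6668 and 4852 in brain and with 498 and 335 in leg, and photoreceptor markers, at 164 and 273 in IFM, against 2611 and 3171 in brain and against 33.3 and 42.5 in leg, moved with brain. Fat body markers were higher in IFM (1181 and 952) than in brain (319 and 228) and leg (274 and 366), the sum of 3 tubular muscle markers was highest in leg (13663 and 14826) through Act87E and TpnC41C, while the third, TpnC73F, was at a mean of 30.1 CPM in IFM, with 487 in brain and with 179 in leg, and testis markers reached 114 and 43.7 in IFM against at most 6.41 elsewhere. The part of these cells in the IR values was not tested. For the many events with a median of 2 reads, differences between tissues were not detectable at this depth.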

How the data were processed

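mRNA of 6 libraries (2 each of IFM, brain and whole leg) was analysed. The 12 deposited event tables, 1 per library and read end, hold raw counts of reads that the authors obtained with fortuna. The deposited exon tables hold raw counts per exon bin and library; 78 lines of each were not used. Their fold changes and p-values, and the deposited gene tables of the authors' own comparisons (DESeq2 1.32.0 after STAR 2.7.3a, SAMtools 1.1 and featureCounts of Subread 2.0.0 on BDGP6, per the submitters' processing notes), were not used. The paper's supplement calls the libraries stranded, but whether counting used strand is not given in the sources used here.

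Events were placed against the Ensembl annotation BDGP6.54. As a check of build, 97.3% of 95954 exon-skipping events had both ends on annotated exon edges. Events of every type with at least 50 reads were fitted in edgeR 4.0.16 (R 4.3.3; TMM, quasi-likelihood F test, 6 libraries in 1 fit, tissue only, Benjamini-Hochberg, threshold 0.05). In the comparison relative to locus expression, the log of the gene's mean exon CPM in the tissue plus 0.1 was an offset. It was the same for both libraries of a tissue. The spread of locus expression between libraries therefore did not enter these p-values. Python 3.11.15 with pandas 2.3.3, numpy 2.4.6 and scipy 1.17.1 did the rest. The fits were also run on counts simulated from the fitted means and spread. These counts held no moving event borders, so the runs do not bear on that feature. Floors are 3 counts over a group. CPM are of event reads, or of exon counts where a locus or marker is named.

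The events, the gene lists and the tests were chosen with earlier results of these data known. Named genes are those of the 10 events with most reads per tissue, the largest changes among called events with at least 150 reads, the 10 genes with most events and the leading members of each list. Summing overlapping events into regions, fitting whole introns at a minimum of 10 reads, placing events against introns, comparing lengths among introns without an exon inside, and naming the other regions and introns were chosen after their values were seen. Alternatives were other scalings (RLE, total reads, exon library sizes), DESeq2 1.42.0, other filters, single read ends, an offset of 1, a replicate block and each library left out. No genome sequence was used, so base composition, splice site letters and stop codons were not analysed.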

Additional observations from a re-analysis of the deposited data

How the results depend on the processing

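Most calls rest on few reads and on read end 1, and the cause of the changes below was not tested except where the number of events tested sets them. Counts are in the order IFM over leg, IFM over brain and brain over leg. Of 41, 54 and 30 IR events called, a minimum of 10 reads gave 107, 204 and 72, no filter gave 98, 137 and 66 (both with more events tested), and read end 2 alone gave 6, 7 and 4. Exon library sizes gave 62 in IFM over leg, total reads gave 34 in IFM over brain, read end 1 alone gave 34 in IFM over brain, and DESeq2 gave 28 in IFM over brain and 18 in brain over leg. Of 46, 60 and 40 regions called, a minimum of 10 reads gave 85, 181 and 73, no filter gave 110 in IFM over brain, and read end 2 alone gave 6, 10 and 8. Relative to the locus, 13, 9 and 3 events became 39, 37 and 9 at a minimum of 10 reads and 34, 22 and 11 with exon library sizes, and 13 and 14 regions became 23 and 37 at a minimum of 10 reads in IFM over leg and IFM over brain, while 2 became 5 with exon library sizes in brain over leg.

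With 1 library left out, events called ranged from 29 to 43, 28 to 50 and 15 to 32, regions from 31 to 48, 46 to 60 and 30 to 37, events relative to the locus from 9 to 17, 4 to 11 and 0 to 4, and regions relative to the locus from 6 to 17, 7 to 14 and 0 to 2. The lowest event counts of IFM over brain (28) and brain over leg (15) came without brain replicate 1. Called host genes ranged from 1450 to 1726, 1752 to 2021 and 1129 to 1596, against 1798, 2082 and 1551 with all libraries. The share of reads ranged from 0.260% to 0.293% in IFM, 0.575% to 0.600% in brain and 0.873% to 0.910% in leg. It was 0.423%, 0.873% and 1.54% with end 1 alone, 0.124%, 0.320% and 0.279% with end 2 alone, and 0.214%, 0.424% and 0.779% over events with at least 5 reads. At 750 reads, 2, 0 and 1 events stayed in IFM, brain and leg, thresholds scaled to exon counts gave 7 in IFM and 3 in brain, and single libraries at 75 reads gave 11 to 18 in IFM, 3 to 3 in brain and 6 to 6 in leg. Of 1194 whole introns, 7 had at least 50 reads.

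Replicate numbers did not pair the samples (correlations of deviations 0.0124 for IFM with leg, 0.0115 for IFM with brain, 0.0236 for brain with leg). With the replicate block, 58, 57 and 33 events and 43, 57 and 38 regions were called, and relative to the locus 21, 19 and 7 events and 13, 13 and 2 regions. For locus expression, no paired analysis was possible because the exon columns carry no replicate number. Of the values for named events and regions, 861 kept their side of the threshold, 45 lost it and 0 changed sign. CG43897 was among those that lost it with DESeq2, and ND-B12 in brain over leg lost it without brain replicate 1.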
